A study of Rattus norvegicus with 3 samples.

Results

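The 6 genes described here belong to the glucocorticoid pathway. They are the receptor gene Nr3c1, the activating enzyme gene Hsd11b1 and 4 genes widely used as readouts of the receptor, Tsc22d3, Fkbp5, Per1 and Klf9. They were chosen by name for their roles in the pathway, and each was found once among the 34034 features counted in both single-cell libraries of the rat thymus.

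Glucocorticoids enter cells by diffusion and bind the receptor encoded by Nr3c1, which is held in the cytoplasm by chaperones and then moves to the nucleus, where it binds response elements and changes transcription. The enzyme 11-beta-hydroxysteroid dehydrogenase type 1, encoded by Hsd11b1, regenerates active hormone from its inactive 11-keto form inside cells. In the thymus the hormone is best known for killing immature thymocytes, above all CD4+CD8+ double-positive cells, and for its proposed role in setting the threshold of thymocyte selection.

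Cells came from thymi of 8-week-old Lewis rats, with no treatment or altered gene named in the labels. The stromal library held CD45-negative cells, freed with the enzymes Liberase TH and DNase I, then passed over magnetic beads and a flow sorter. Cells of the thymocyte library were freed with collagenase D in place of Liberase TH. A spatial section of the same strain was not used here, since its tables carry no value per gene.

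Each group was 1 library, and the number of animals behind it is not given in the sources used here, so no difference below has a replicate check and no test was run. Levels are UMIs (unique molecular identifiers, 1 per captured transcript) per 1000000 UMIs of all cells with a label, written CPM. Intervals in brackets are exact 95% intervals for counting error only. They do not cover variation between animals, dissections or libraries. CPM is not corrected for transcript length, so levels of different genes are not compared with each other.

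The stromal library had 13226 annotated cells in 29 labels with a median of 9087.5 UMIs, and the thymocyte library 8546 cells in 25 labels with a median of 3994 UMIs. Labels of at least 20 cells were described, 24 and 21 of them. The authors' label names are used as given. Pooled classes were formed from those names: fibroblast (TMC1, TMC2, TMC3, TMC4 and capFb), mural (vSMC/PC), endothelial (aEC, capEC, vEC and fetal) and epithelial (the TEC, TEPC, mimetic and early Pr labels). Labels of fewer than 20 cells, such as fetal and TEPC, were kept in these classes. Summed markers of the epithelial, endothelial, mural, myeloid, B cell and thymocyte lists were higher in their own stromal labels than in every other label. For 6 fibroblast markers this did not hold, since TMC4 had 8923 CPM and aaTEC2, an epithelial label of 29 cells, had 34687 CPM. TMC4 also had 4570 CPM of the 6 mural markers, against 26.9 to 1761 CPM in the other 4 fibroblast labels. The libraries shared 38 barcodes, 28 of them annotated in both, and no doublet caller was run.

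The receptor was broadly expressed. Nr3c1 ranged from 114 CPM in mTEC2 to 466 CPM in the few thymocytes of the stromal library, with a median over labels of 281 CPM. Along this order 21 of 23 neighbouring pairs of labels had overlapping intervals. Among fibroblasts Nr3c1 was 328 CPM in TMC1, 364 CPM in TMC2, 379 CPM in TMC3, 312 CPM in TMC4 and 307 CPM in capFb. The intervals of TMC2 (357 to 371) and TMC3 (367 to 391) lay above those of TMC1 (319 to 338), TMC4 (302 to 322) and capFb (298 to 315). Between pooled classes the fold was close to 1: fibroblast cells had 1.12 times the epithelial level (1.10 to 1.15), 1.02 times the endothelial level (0.98 to 1.06) and 1.23 times the mural level (1.15 to 1.32).

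Within the epithelium the receptor was not even. Nr3c1 was 379 CPM (362 to 396) in cTEC, the cortical epithelium, and 345 CPM (335 to 356) in early Pr. In the medullary labels it was 267 CPM (255 to 280) in mTEC1, 160.2 CPM (139.7 to 182.9) in mTEC-prol and 114 CPM (93.0 to 139) in mTEC2. The cortical and early labels lay above all 3 medullary labels with no overlap of intervals. The plot of stromal levels shows this difference between cortex and medulla beside the smaller spread of the fibroblast labels.

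**Figure D1:**
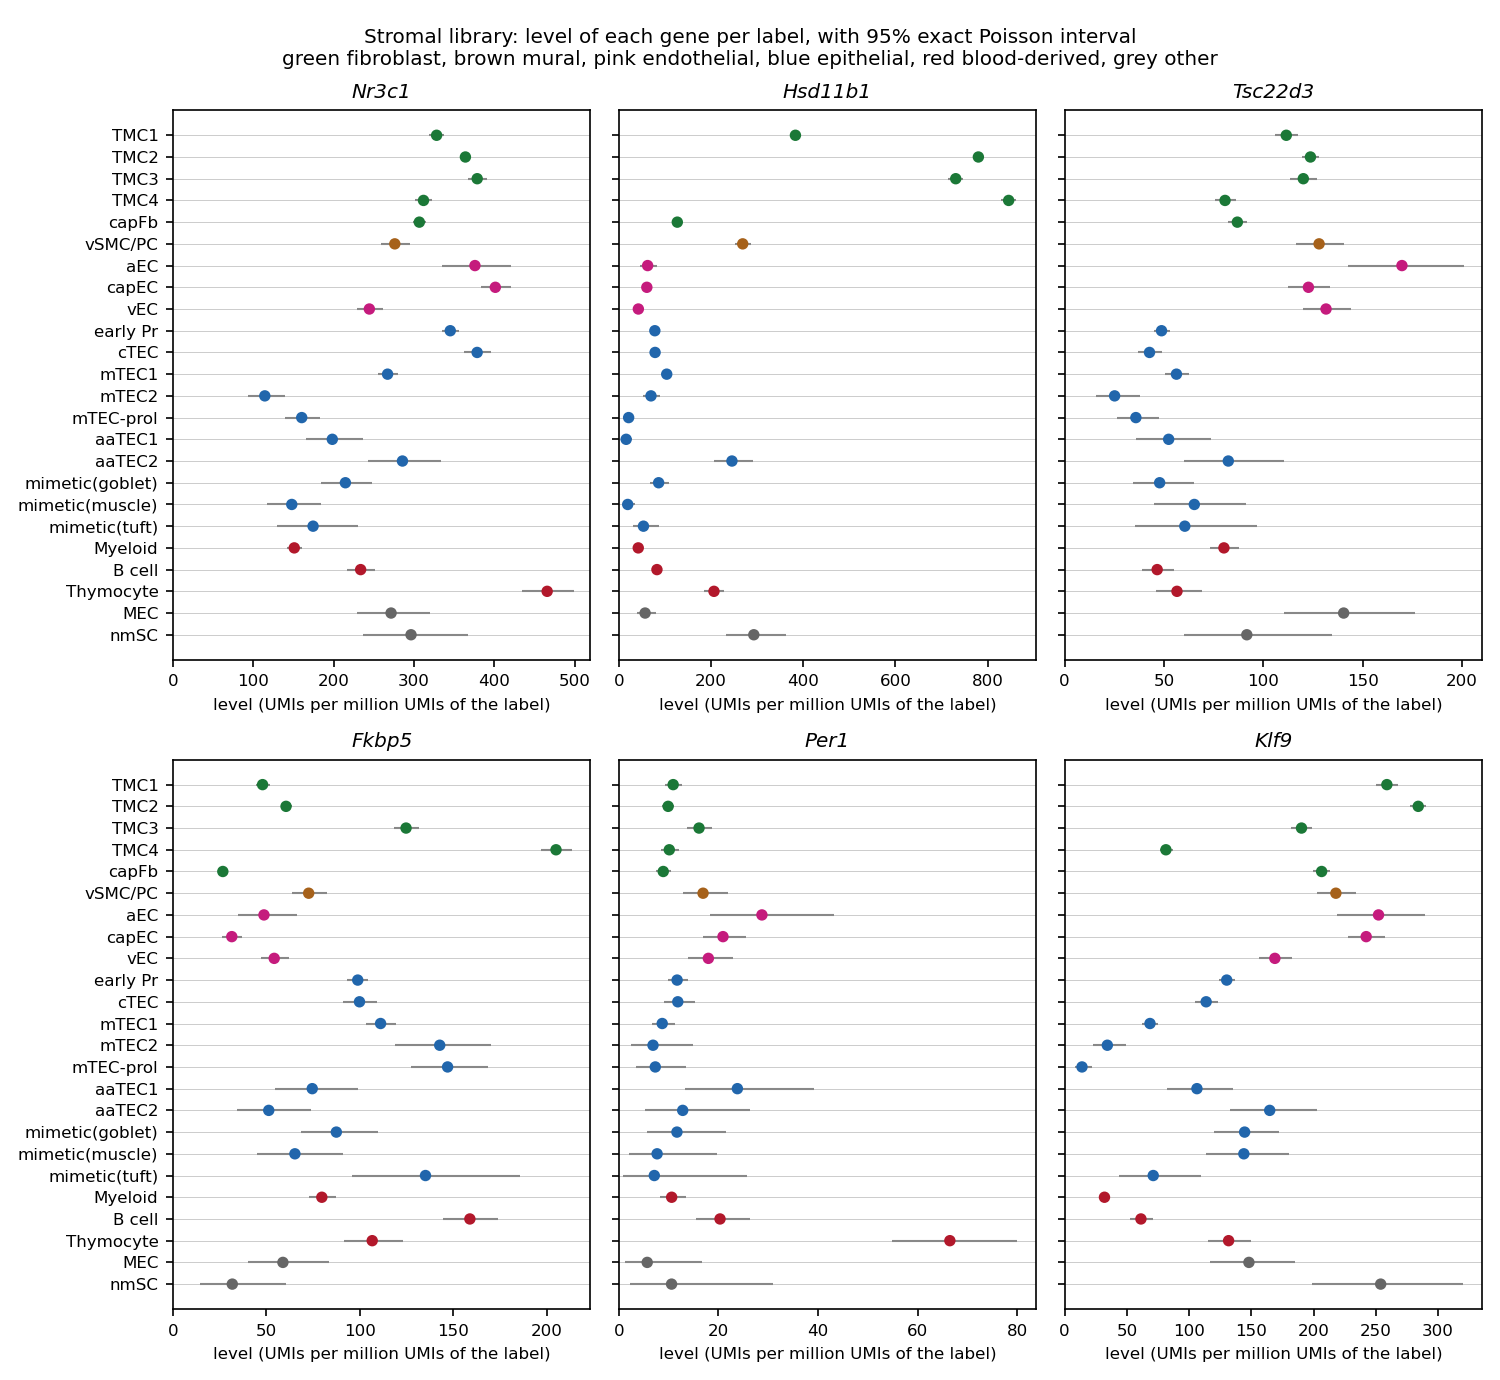
Level of each of the 6 genes in the 24 stromal labels of at least 20 cells, in CPM on a linear axis, with the exact 95% Poisson interval as a line and the class of the label as the colour. Hsd11b1 is highest in TMC2, TMC3 and TMC4, Nr3c1 varies between 114 and 466 CPM over all labels, and Fkbp5 is highest in TMC4 at 205 CPM.

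Hsd11b1 had the widest range of the 6 genes among stromal labels, 53.3-fold from the lowest to the highest. It was 383 CPM in TMC1, 779.9 CPM in TMC2, 731 CPM in TMC3, 846 CPM in TMC4 and 127 CPM in capFb. The first 4 labels were the highest of all 24, and capFb ranked below nmSC, vSMC/PC, aaTEC2 and the thymocytes of this library. Pooled fibroblast labels had 579 CPM against 81.1 CPM in epithelial, 53.5 CPM in endothelial and 269 CPM in mural cells. The fibroblast level was therefore 7.14 times the epithelial level (6.85 to 7.44), 10.8 times the endothelial level (9.88 to 11.9) and 2.15 times the mural level (2.02 to 2.30). As a mean over cells the fold over endothelium was 17.9, and with cells thinned to 1000 UMIs it was 22.6. With only the cells at or below the median of their label in handling genes, a setting added after the data were seen, the fold over mural cells was 1.72, under the 2-fold limit used here.

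A UMI of Hsd11b1 was present in 94.6% of TMC2 cells (93.8 to 95.4, median depth 8269.5 UMIs) and in 12.1% of capEC cells (9.67 to 14.9, median depth 5805.5 UMIs), an endothelial label taken here as the background. After each cell was thinned to 1000 UMIs these shares were 50.3% and 2.89%. In the other fibroblast labels the unthinned share was 67.4% in TMC1, 90.6% in TMC3, 90.8% in TMC4 and 53.8% in capFb. Thinning gave 27.4%, 48.0%, 49.2% and 8.25% in the same order, so the fibroblast labels kept the order capFb, TMC1 and then the 3 others close together.

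Fibroblast transcripts were present in every stromal label, and Hsd11b1 was therefore set beside them. Pooled fibroblasts had 15.3 Hsd11b1 UMIs per 1000 UMIs of 6 fibroblast markers (Col1a1, Col1a2, Col3a1, Pdgfra, Dcn and Lum). Thymocytes of the stromal library had 15.2 per 1000, with Hsd11b1 at 35.6% and the markers at 35.8% of the fibroblast level. Myeloid cells had 13.7, capEC 14.3, nmSC 13.8 and mimetic(muscle) 14.9 per 1000. In these labels the gene and the markers stood in nearly the same ratio as in fibroblasts. The large epithelial labels early Pr, at 17.7 per 1000, and cTEC, at 18.8, were a little above it. The ratio was higher in mTEC-prol, at 63.6 per 1000, mTEC1, at 34.2, mimetic(tuft), at 34.0, vSMC/PC, at 32.6, and aaTEC1, at 30.03, and lower in MEC, at 3.36 per 1000, and in aaTEC2, at 7.07 per 1000. How much of these levels came from free RNA or mixed droplets was not tested.

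The same ratio separated the fibroblast labels from each other more widely than the level did. Hsd11b1 UMIs per 1000 marker UMIs were 2.29 in capFb, 7.51 in TMC1, 19.8 in TMC2, 33.8 in TMC3 and 94.8 in TMC4. The markers were at 55306, 51016, 39342, 21633 and 8923 CPM in that order. The label with the lowest collagen and proteoglycan markers thus had the highest Hsd11b1 level.

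**Figure D2:**
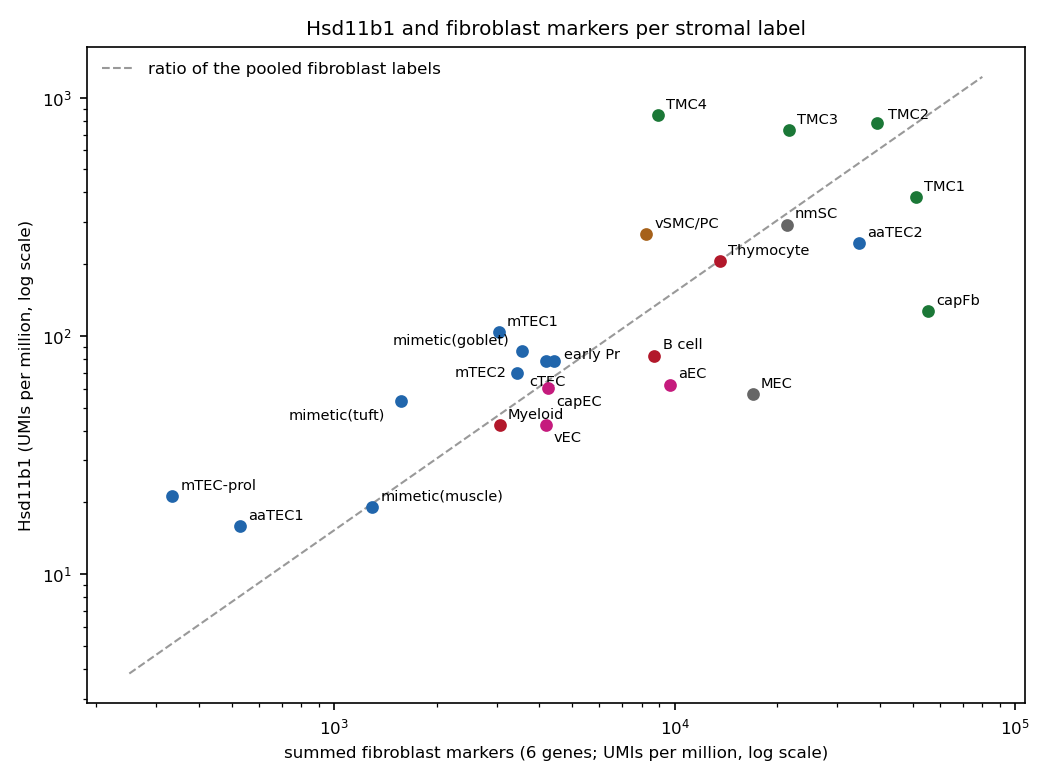
Hsd11b1 against the sum of 6 fibroblast markers in the 24 stromal labels, both in CPM on log axes, with the dashed line at the ratio of the pooled fibroblast labels. Thymocyte, Myeloid and capEC lie near the line, whereas TMC4, with 846 CPM of Hsd11b1 and 8923 CPM of markers, lies far above it and capFb far below.

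In the thymocyte library Hsd11b1 had 109 UMIs in all. It had 32 UMIs among the 5202 cells labelled DP, where 0.538% of cells had one (0.358 to 0.777). Its level was highest in Treg, on 8 UMIs, at 25.2 CPM (10.9 to 49.7), and in B+myeloid, on 28 UMIs, at 11.7 CPM (7.78 to 16.9). In 5 labels of this library it had no UMI, and the limits that 3 UMIs set there were above the level of DP cells.

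Tsc22d3 encodes GILZ, a leucine zipper protein induced by glucocorticoids that mediates part of their anti-inflammatory action. In the stroma its level followed the vessels and fibroblasts more than the epithelium. It was 169.8 CPM (142.5 to 200.9) in aEC, 123 CPM in capEC, 132 CPM in vEC and 128 CPM in vSMC/PC. Among fibroblasts it was 112 CPM in TMC1, 124 CPM in TMC2, 120.1 CPM in TMC3, 80.7 CPM in TMC4 and 86.9 CPM in capFb. In cTEC it was 42.7 CPM (37.2 to 48.8) and in mTEC2, the lowest label, 25.1 CPM (15.8 to 38.1). The endothelial and mural labels did not overlap with cTEC, early Pr, mTEC1 or mTEC2, while neighbours along the whole order of 24 labels overlapped in all 23 pairs.

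Klf9 encodes a Krüppel-like zinc finger factor that is a direct target of the receptor in many tissues. It was 259 CPM in TMC1, 284 CPM in TMC2, 190.3 CPM in TMC3, 81.3 CPM in TMC4 and 206 CPM in capFb. The endothelial labels had 252 CPM in aEC, 242 CPM in capEC and 169 CPM in vEC. Within the epithelium it was 130.2 CPM in early Pr, 114 CPM in cTEC, 68.6 CPM in mTEC1, 34.3 CPM in mTEC2 and 13.9 CPM (8.37 to 21.7) in mTEC-prol. Klf9 and Nr3c1 were thus both lower in medullary than in cortical epithelium, and Klf9 was lower in TMC4 than in the other 4 fibroblast labels.

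Fkbp5 encodes FKBP51, an HSP90 co-chaperone that lowers the affinity of the receptor for hormone and is itself induced by the receptor. Its order among labels ran against that of the 2 genes above. Among fibroblasts it was 26.7 CPM (24.2 to 29.3) in capFb, 48.0 CPM (44.4 to 51.7) in TMC1, 60.5 CPM (57.6 to 63.5) in TMC2, 125 CPM (118 to 132) in TMC3 and 205 CPM (197 to 213) in TMC4. No intervals overlapped among these 5 labels, and capFb and TMC4 were the lowest and the highest of all 24 labels. In the epithelium it was 99.8 CPM in cTEC, 98.9 CPM in early Pr, 111 CPM in mTEC1, 143 CPM in mTEC2 and 147 CPM in mTEC-prol, and in the endothelium 31.5 CPM in capEC, 48.7 CPM in aEC and 54.2 CPM in vEC.

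Per1 encodes a period protein of the circadian clock whose promoter also responds to glucocorticoids and to cAMP. It was low in the stroma, at 8.71 to 20.9 CPM in the fibroblast, mural, capEC, vEC, early Pr, cTEC and mTEC1 labels. aEC had 28.7 CPM (18.2 to 43.1) on 23 UMIs. The highest label was the thymocytes of this library, at 66.4 CPM (54.8 to 79.8), whose interval overlapped with no other label.

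Counted by a fixed fold, the 4 targets did not move together between stromal classes. In fibroblast against epithelial cells 3 of 6 genes were at least 2-fold higher, Hsd11b1, Tsc22d3 at 2.19-fold (2.07 to 2.32) and Klf9 at 2.11-fold (2.03 to 2.19), and none was 2-fold lower. Of the 15203 genes with at least 100 UMIs, 15.1% were 2-fold higher and 18.4% lower in this comparison, 33.6% in either direction. Fkbp5 was 81.1 CPM in fibroblasts and 103 CPM in epithelium (0.785-fold, 0.752 to 0.820), and Per1 was 10.7 against 11.1 CPM. Counted as UMIs per cell, a setting added after the data were seen, Tsc22d3 was 1.68-fold and Klf9 1.61-fold, so that Hsd11b1 alone passed. With mitochondrial, ribosomal and haemoglobin genes left out of the totals, Klf9 was 1.99-fold. Median depth was 9006.5 UMIs in fibroblasts and 11345.5 UMIs in epithelium.

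Against endothelium Hsd11b1 was the only one of the 6 to be 2-fold higher in fibroblasts, where the background was 19.7% of genes higher and 12.5% lower, 32.2% in either direction. Fkbp5 was 1.92-fold higher (1.73 to 2.14) and Per1 0.526-fold (0.448 to 0.621), both inside the limit. Against mural cells, with 11.7% of genes 2-fold higher and 7.16% lower, 18.9% in either direction, Hsd11b1 was again alone, and Per1 was 0.635-fold (0.485 to 0.846). Epithelial against endothelial cells gave a split: Fkbp5 was 2.44-fold higher (2.20 to 2.73), while Tsc22d3 was 0.375-fold (0.347 to 0.406) and Klf9 0.493-fold (0.466 to 0.523). In that comparison 21.4% of genes were 2-fold higher and 12.2% lower, 33.6% in either direction. With 6 genes, none of these counts is far from the background. As UMIs per cell, Tsc22d3 was 0.569-fold and Klf9 0.749-fold in the last comparison, both inside the limit, and Hsd11b1 was 2.30-fold. Thinned to 1000 UMIs, Hsd11b1 was 2.61-fold higher in epithelium than in endothelium, against 1.52-fold unthinned.

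Genes of handling and dissociation, which also answer to stress during digestion, differed between the same classes. Their summed level was 10928 CPM in endothelial, 9038 CPM in mural, 5316 CPM in epithelial and 4080 CPM in fibroblast cells, for 15 genes including Fos, Jun and Atf3. In fibroblast against endothelial cells 11 of these 15 genes were 2-fold lower and 1 higher, against 12.5% and 19.7% of all genes. The part of handling in the Per1 and Tsc22d3 levels of vessels was not tested.

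The promoters of Tsc22d3 and Klf9 are shown because these were the target genes that were higher in fibroblasts than in epithelium. They are the 250 bases before a transcription start in the RefSeq table of build GRCr8, 5′ to 3′ on the strand of the gene, at chrX:109010035-109010284 (minus strand) for the third annotated start of Tsc22d3 and chr1:230126396-230126645 (plus strand) for Klf9. Capitals mark a TATAAA box that begins 44 bases before the start. The windows of the other annotated starts of Tsc22d3 held no such box, and this motif was added after the windows were read.
Tsc22d3: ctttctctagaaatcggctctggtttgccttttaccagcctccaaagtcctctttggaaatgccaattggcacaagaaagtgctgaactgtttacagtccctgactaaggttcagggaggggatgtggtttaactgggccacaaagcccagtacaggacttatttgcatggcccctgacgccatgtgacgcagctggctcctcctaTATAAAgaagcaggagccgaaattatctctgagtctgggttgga
Klf9: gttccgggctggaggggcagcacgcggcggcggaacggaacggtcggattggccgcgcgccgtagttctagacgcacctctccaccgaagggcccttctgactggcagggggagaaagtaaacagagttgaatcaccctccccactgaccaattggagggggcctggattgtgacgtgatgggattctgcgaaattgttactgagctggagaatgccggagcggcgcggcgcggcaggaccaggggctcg

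Neither window held the palindromic glucocorticoid response element, which is AGAACA and TGTTCT with 3 bases of any kind between them, the shorter TGTTCT alone or the E-box CACGTG on either strand. TGTTCT is the right arm of the palindrome, so a match of the longer motif is always one of the shorter. None of the 8 windows of Nr3c1, Tsc22d3, Fkbp5, Per1 and Klf9 held any of the 3 motifs. Only the Tsc22d3 window shown, out of these 8, held TATAAA, which is near the share over all windows below. Among 33469 windows of the same length, 0.0120% held the palindrome, 17.5% held TGTTCT, 5.59% held CACGTG and 12.9% held TATAAA. Hsd11b1 had no entry. These counts describe the letters of short windows and say nothing of binding at more distant elements, and the libraries were counted on build mRatBN7.2.

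Thymocyte development was the other axis along which these genes differed. The labels cover double-negative cells (DN), proliferating and resting double-positive cells (DP-P and DP), double-positive cells named as signalled (Pre DP-sig and DP-sig) and mature single-positive cells (SP). The reading of these abbreviations follows common usage, since the sources used here do not spell them out. The 5 summed DN markers were higher in gdT than in DN, at 742 against 432 CPM, and DP markers were higher in Pre DP-sig than in DP-P, at 2234 against 1992 CPM. The 4 mature labels had more of the mature SP markers than any other label.

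Nr3c1 was 246 CPM (237 to 255) in DN, 261 CPM (254 to 269) in DP-P and 513 CPM (503 to 523) in DP. It was 345 CPM (312 to 380) in Pre DP-sig and 314 CPM (284 to 346) in DP-sig. In the mature labels it was 139.8 CPM in Mature CD4-1, 247 CPM in Mature CD4-2, 175 CPM in Mature CD8-1 and 210.2 CPM in Mature CD8-2. The receptor transcript thus took its largest share of UMIs in DP cells, the stage known for glucocorticoid-induced death, and the interval of DP overlapped with no other label. gdT was next at 447 CPM (422 to 473).

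Counted per cell the order was different. Nr3c1 was 6.83 UMIs per cell in DN, 2.34 in DP-P and DP pooled, 1.32 in signalled DP and 1.93 in mature SP cells. Within that pool, 5202 DP cells held 9698 UMIs and 848 DP-P cells held 4468, so DP-P had more per cell. The DP label alone was slightly below mature SP cells on this scale. Median depth was 23190 UMIs in DN, 3438 in pooled DP, 3725 in signalled DP and 9571.5 in mature SP cells. DP cells therefore had a high share of Nr3c1 in a small pool of UMIs. Fewer transcripts per cell and a lower capture of them cannot be told apart here.

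Fkbp5 was highest in gdT, at 311 CPM (290 to 332), followed by DP-P and DN. It was 253 CPM in DN, 258 CPM in DP-P, 129 CPM in DP, 117 CPM in Pre DP-sig and 172 CPM in DP-sig. The mature labels had 34.4 CPM in Mature CD4-1, 86.1 CPM in Mature CD4-2, 52.7 CPM in Mature CD8-1 and 162 CPM (125 to 206) in Mature CD8-2, a label of 27 cells. The last of these stood with DP-sig and apart from the other 3 mature labels.

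Tsc22d3 ran the opposite way. It was 21.2 CPM (18.6 to 24.2) in DN, 21.5 CPM in DP-P, 42.5 CPM in DP, 45.0 CPM in Pre DP-sig and 37.3 CPM in DP-sig. It was lowest in Immature CD4-1, at 7.82 CPM (2.87 to 17.0) on 6 UMIs. In mature cells it was 142 CPM in Mature CD4-1, 126 CPM in Mature CD4-2, 157 CPM in Mature CD8-1 and 41.1 CPM (23.9 to 65.8) in Mature CD8-2. Treg, at 179.9 CPM (136.2 to 233.1), and Pre-Treg, at 148 CPM (114 to 188), were in the range of the high mature labels, and Mature CD8-2 again stood with the immature cells.

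Per1 was highest in DP-sig. It was 20.7 CPM (18.1 to 23.6) in DN, 26.3 CPM in DP-P, 67.0 CPM (63.3 to 70.8) in DP, 111 CPM (92.8 to 131) in Pre DP-sig and 145 CPM (125 to 167) in DP-sig. It was 95.1 CPM in Immature CD4-1, 89.5 CPM in Immature CD8-1 and 81.4 CPM in AgoSel1, and 37.4 to 71.0 CPM in the 4 mature labels. The intervals of DP-sig and Pre DP-sig overlapped, and that of DP-sig lay above those of Immature CD4-1 (74.6 to 119.6), Immature CD8-1 (71.8 to 110.2) and AgoSel1 (57.0 to 113), although direct neighbours in the order overlapped in all 20 pairs. Thinned to 1000 UMIs per cell, 15.6% of DP-sig cells and 2.56% of DN cells had a Per1 UMI, against 39.3% and 34.9% unthinned.

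Klf9 was low throughout, from 15.4 CPM (8.18 to 26.3) in Mature cycling T to 76.1 CPM (52.7 to 106) in Pre-Treg. It was 18.0 CPM (15.6 to 20.7) in DN, 19.1 CPM in DP-P and 42.6 CPM (39.7 to 45.6) in DP. The interval of DP lay above those of DN and DP-P.

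**Figure D3:**
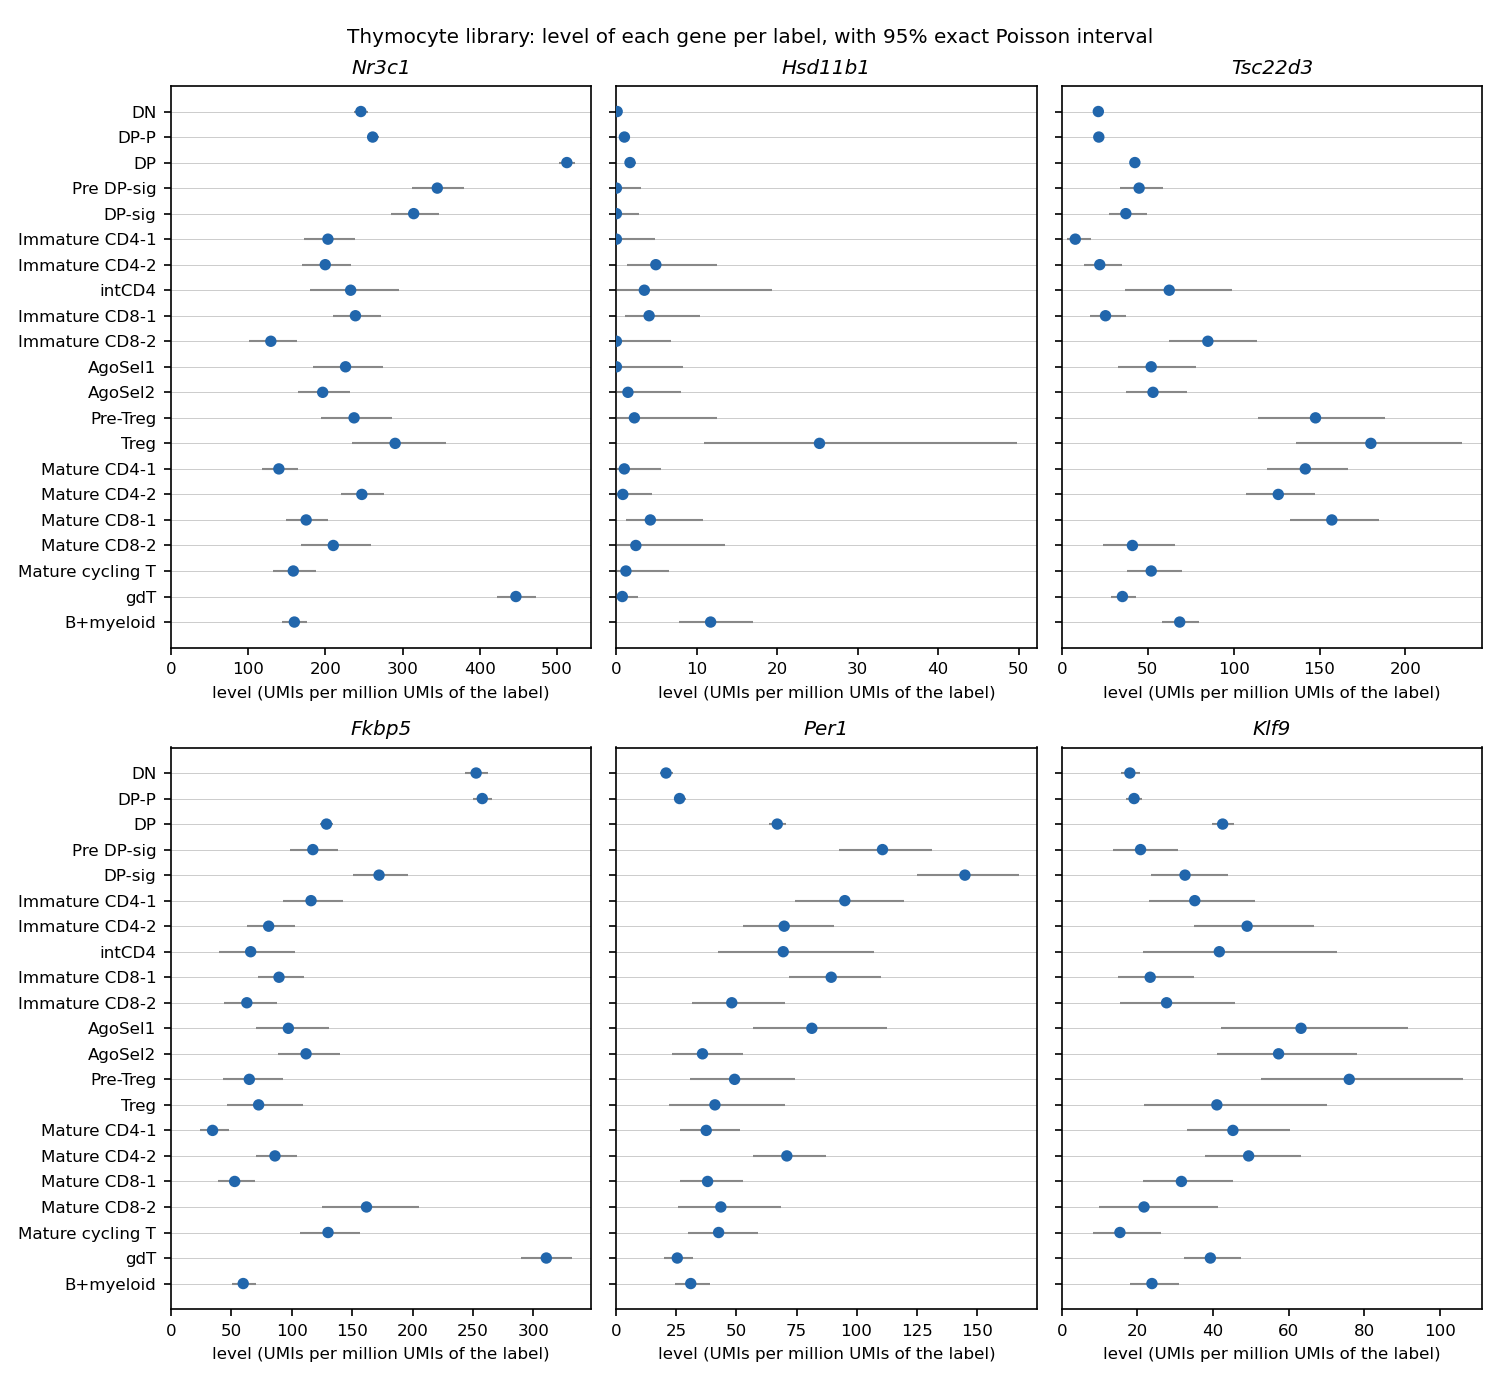
Level of each of the 6 genes in the 21 labels of the thymocyte library with at least 20 cells, in CPM on linear axes, with exact 95% Poisson intervals. Nr3c1 is highest in DP at 513 CPM, Per1 in DP-sig at 145 CPM, and Tsc22d3 in Treg at 179.9 CPM, while Hsd11b1 stays at or under 25.2 CPM.

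Over pooled stages, Hsd11b1 was under the minimum of 100 UMIs and 5 genes were compared. In DP against DN cells Per1 was 2.31-fold higher (2.00 to 2.66), Nr3c1 1.60-fold (1.53 to 1.67) and Fkbp5 0.752-fold (0.719 to 0.786), so 1 of 5 passed 2-fold where 15.9% of genes were higher and 6.55% lower, 22.5% in either direction. In signalled DP against DP cells Per1 again was the one gene to pass, at 2.70-fold (2.39 to 3.04), with 5.19% of genes 2-fold higher and 10.3% lower, 15.5% in either direction. The other 4 genes were between 0.768-fold and 1.26-fold. The pooled DP stage holds the DP and DP-P labels, whose levels differed. With the DP label alone, a setting added after the data were seen, 4 of 5 genes were at least 2-fold higher than in DN cells, Per1 at 3.24-fold, Klf9 at 2.36-fold, Nr3c1 at 2.08-fold and Tsc22d3 at 2.00-fold, where 43.9% of genes passed in either direction. Against the DP label alone Per1 was 1.92-fold in signalled DP cells, and none of the 5 genes passed, where 11.8% of all genes did.

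In mature SP against DP cells Tsc22d3 was 3.96-fold higher (3.55 to 4.41), Nr3c1 0.494-fold (0.457 to 0.532) and Fkbp5 0.377-fold (0.332 to 0.426). Of all genes 7.26% were 2-fold higher and 18.5% lower, 25.8% in either direction, with a median log2 difference of -0.28. In mature SP against signalled DP cells Tsc22d3 was 3.14-fold higher (2.53 to 3.93), Fkbp5 0.491-fold (0.417 to 0.577) and Per1 0.388-fold (0.321 to 0.467), where 5.13% of genes were 2-fold higher and 9.75% lower, 14.9% in either direction. Here the median log2 difference over all genes was -0.32. Tsc22d3 was thus the one gene of the 5 that was 2-fold higher in mature cells in both comparisons. With mitochondrial, ribosomal and haemoglobin genes left out of the totals, Nr3c1 was 0.581-fold over DP and Fkbp5 0.591-fold over signalled DP cells, both inside the limit. Against the DP label alone Tsc22d3 was 3.03-fold, Nr3c1 0.379-fold and Fkbp5 0.556-fold in mature SP cells, so that 2 of 5 passed where 27% of all genes did.

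As UMIs per cell, several of these folds changed. All 5 genes were at least 2-fold lower in DP than in DN cells, Per1 among them at 0.494-fold, which reverses its direction. Per1 was 1.82-fold in signalled DP against DP and 0.958-fold in mature SP against signalled DP cells. In mature SP against DP cells, with DP-P in the pool, Nr3c1 was 0.823-fold and Fkbp5 0.628-fold. Fkbp5 turned to 1.21-fold in mature SP against signalled DP cells. Tsc22d3 stayed higher in mature cells on this scale, at 6.60-fold over DP and 7.77-fold over signalled DP cells.

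**Figure D4:**
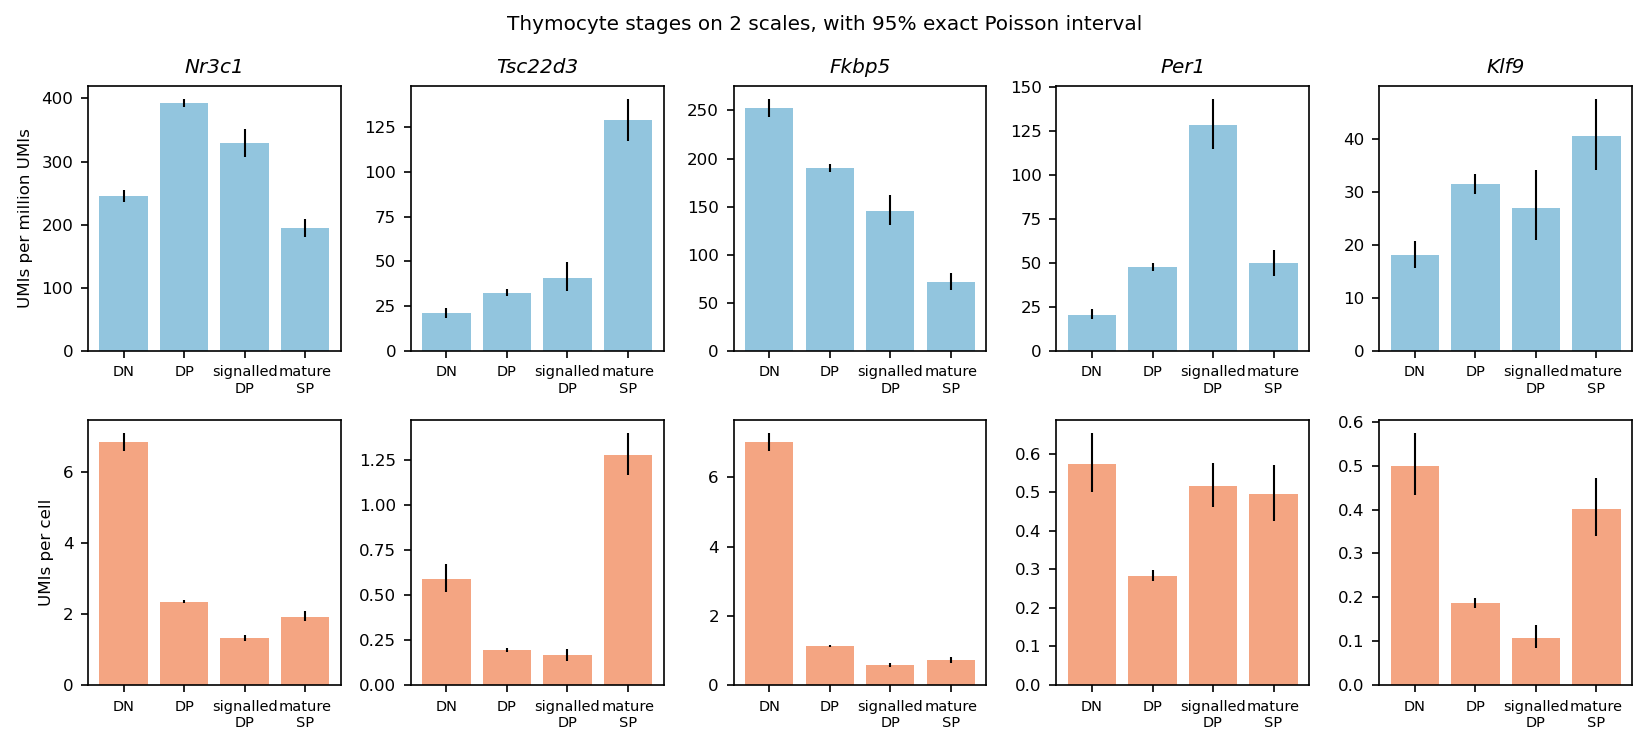
The 5 genes at 4 pooled stages of the thymocyte library on 2 scales, CPM in the upper row and UMIs per cell in the lower row, with exact 95% Poisson intervals as vertical lines and all bars starting at 0. Nr3c1 is highest in DP in the upper row and highest in DN, at 6.83 UMIs per cell, in the lower row, whereas Tsc22d3 is highest in mature SP in both rows.

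Tsc22d3 and Fkbp5, both induced by the receptor in many cell types, had opposite orders in both libraries. Pearson's r of log2(CPM + 1) between them was -0.62 over 18 stromal labels of at least 50 cells and -0.64 over 17 labels of the thymocyte library. The points of a panel share 1 library, and labels differ in depth and in how much of the RNA other genes take up, so r is a description. Tsc22d3 and Klf9 had r of 0.73 and Nr3c1 and Klf9 0.77 in the stroma, and Fkbp5 and Klf9 -0.65. In the thymocyte library Nr3c1 and Fkbp5 had r of 0.70, against -0.33 in the stroma.

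**Figure D5:**
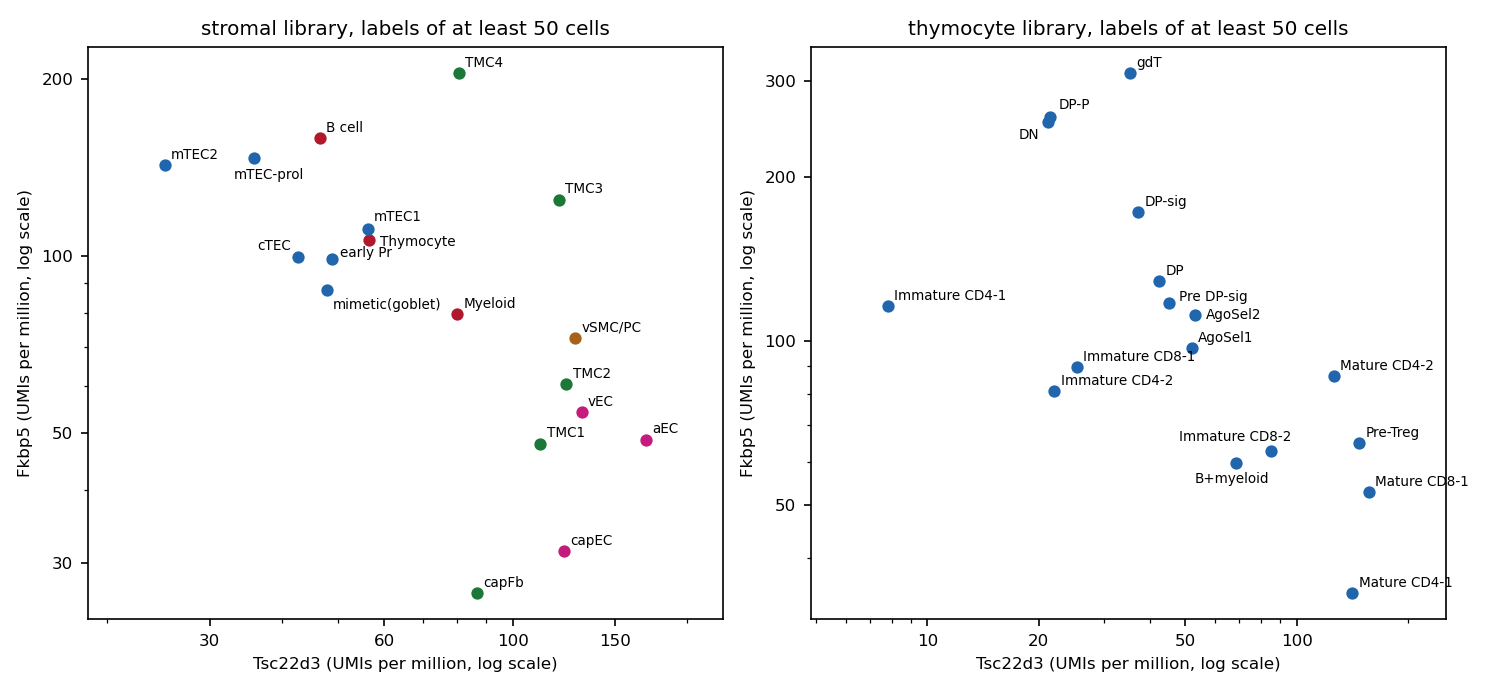
Fkbp5 against Tsc22d3 for each label of at least 50 cells, both in CPM on log axes, with stromal labels coloured by class as in the plot of stromal levels (left) and labels of the thymocyte library (right). Labels high in Tsc22d3, such as aEC at 169.8 CPM, tend to be low in Fkbp5, and in the left panel TMC3 and TMC4 stand apart with 125 and 205 CPM of Fkbp5.

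The question of whether local activation goes with target levels was followed within the fibroblast labels, by splitting cells on the presence of an Hsd11b1 UMI. Over 5 labels and 4 targets, 12 of 20 pairs were higher in cells with a UMI, 7 of them with an interval above 1, and 3 of the lower pairs had an interval below 1. As a mean of cell CPM, 10 of 20 pairs were higher. The share of all genes that differ in this split is not given, so these counts are not a result about the targets. Tsc22d3 was higher in all 5 labels, from 1.08-fold in capFb (0.97 to 1.21) to 2.31-fold in TMC4 (1.54 to 3.62), where it was 83.5 CPM in 1134 cells with and 36.2 CPM in 115 cells without a UMI. Fkbp5 was 1.42-fold in TMC1 (1.19 to 1.71), 0.794-fold in TMC3 (0.647 to 0.984) and 0.814-fold in TMC4 (0.694 to 0.959), so its direction differed between labels. The third pair below 1 was Per1 in TMC1, at 0.605-fold (0.434 to 0.846). In TMC4 the cells with a UMI had a median depth of 8993.5 UMIs and those without 4955 UMIs. With all cells thinned to 1000 UMIs, 11 of 20 pairs were higher. Thinning also redrew the split, since cells were sorted on the UMIs left, which gave 614 TMC4 cells with and 635 without a UMI. Most of those 635 cells had a UMI before thinning, so depth and groups both changed. In the thinned split 2 pairs had an interval apart from 1, in opposite directions, Tsc22d3 in TMC2 at 1.33-fold (1.08 to 1.64) and Fkbp5 in TMC4 at 0.711-fold (0.545 to 0.925). Tsc22d3 was then 1.20-fold in TMC4 (0.79 to 1.84) and 0.89-fold in TMC3 (0.62 to 1.25). Cells are not replicates, and these intervals cover counting error only.

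Other parts of the pathway showed where the hormone could be handled. Hsd11b2, which inactivates the hormone, was high in 4 epithelial labels of few cells, at 286 CPM (242 to 336) in mimetic(muscle), 260.1 CPM (227.0 to 296.5) in mimetic(goblet), 242 CPM (188 to 307) in mimetic(tuft) and 240 CPM (203 to 281) in aaTEC1. In every other stromal label it was at or under 8.78 CPM, and the thymocyte library had 1 UMI. In mimetic(tuft) the 68 UMIs came from 24% of 25 cells, against 60 to 69.1% of cells in the other 3 labels. Hsd11b1 in these 4 labels was 19.2, 86.3, 53.4 and 15.9 CPM, on 10, 74, 15 and 10 UMIs. These UMIs came from 7, 14, 3 and 5 cells in the same order. How many of them were free RNA or came from mixed droplets was not tested. The Hsd11b1 level in mimetic(goblet) was near the 81.1 CPM of the pooled epithelial labels, and 25.5% of its 55 cells had a UMI. Whether single cells held both transcripts was not tested.

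H6pd supplies the cofactor that lets the enzyme of Hsd11b1 work in the activating direction. It was 20.4 CPM in capFb, 29.9 CPM in TMC1, 40.6 CPM in TMC2, 47.5 CPM (43.5 to 51.9) in TMC3 and 50.7 CPM (46.7 to 55.0) in TMC4. The highest H6pd levels were 67.2 CPM (46.8 to 93.4) in mimetic(muscle), on 35 UMIs, and 66.5 CPM (50.3 to 86.1) in mimetic(goblet). Their intervals overlapped with that of TMC4. The other labels high in Hsd11b2 were below TMC4, at 49.2 CPM (33.4 to 69.8) in aaTEC1 and 42.7 CPM (22.1 to 74.6) in mimetic(tuft). Nr3c2, the mineralocorticoid receptor, which also binds glucocorticoids, was 57.7 CPM in capFb, 46.7 CPM in TMC1, 69.5 CPM in TMC2, 149 CPM in TMC3 and 278 CPM (268 to 287) in TMC4. Its level was much the same in aaTEC1, at 273 CPM (234 to 317), and in mimetic(goblet), at 264 CPM (230 to 300). Along capFb, TMC1, TMC2, TMC3 and TMC4, Fkbp5 was higher at every step with no overlap of intervals. The intervals of H6pd overlapped between TMC3 and TMC4, Nr3c2 was lower in TMC1 than in capFb, and Hsd11b1 was lower in TMC3 than in TMC2.

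Genes of steroid synthesis from cholesterol were at the edge of detection. Cyp11a1, the first enzyme of that route, had 6 UMIs in 13226 stromal cells and 10 UMIs in 8546 cells of the thymocyte library. Cyp11b1, the last step to corticosterone, had 1 and 0 UMIs, Hsd3b1 0 and 0, and Cyp21a1 66 and 0. Taking 3 UMIs as the limit for a count of 0, that limit was 0.0228 CPM in the stroma and 0.0466 CPM in the thymocyte library. Over the whole list of 16 steroid enzymes and carriers, 7 had enough UMIs in fibroblast against epithelial cells, of which Akr1c14 was 2-fold higher and Hsd11b2, Srd5a1 and Abcb1b were lower, against 15.1% and 18.4% of all genes.

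Receptor partners, the chaperones and cofactors that hold the receptor or work with it, differed little between stromal classes. Of 11 such genes none was 2-fold higher and 1, Fkbp4, lower in fibroblast against epithelial cells, against 15.1% and 18.4% of all genes, with a median log2 difference of -0.38 against -0.14 over all genes. In DP against DN cells 10 were compared, with Ncoa1 and Ncoa2 higher and Hsp90ab1, Fkbp4, Ptges3 and Hspa8 lower, against 15.9% of all genes higher and 6.55% lower. Their median was -0.76 against 0.18 over all genes. This too is a comparison of CPM, with a median depth of 23190 UMIs in DN and 3438 in pooled DP cells. Folds per cell are not given for the receptor partners.

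Further target genes known from textbooks gave mixed counts in fibroblast against epithelial and in mature SP against DP cells. Of 24 compared in fibroblast against epithelial cells, 4 were at least 2-fold higher, Zbtb16, Errfi1, Cebpd and Per2, and 6 lower, the metallothioneins Mt1 and Mt2A, Ddit4, the cell-cycle inhibitors Cdkn1a and Cdkn1c, and Lcn2. The shares of all genes were 15.1% higher and 18.4% lower. Errfi1, a feedback inhibitor of the EGF receptor, was 875 CPM in fibroblasts and 258 CPM in epithelium, a 3.39-fold difference (3.31 to 3.47). Mt2A was 39.8 against 879.5 CPM. In mature SP against DP cells 16 were compared, with Nfkbia, Ddit4, Txnip, Il7r, Zfp36 and Sesn1 higher and Sgk1, Dusp1, Errfi1, Mt1, Per3, Cdkn1c, Bcl2l11 and Bcl6 lower, against 7.26% of all genes higher and 18.5% lower. Many of these genes have other regulators, and the list had no common direction in either of these comparisons. Of 24 compared in fibroblast against endothelial cells, 5 were 2-fold higher and 9 lower, against 19.7% and 12.5% of all genes.

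The clock genes were counted because Per1 belongs to them. In signalled DP against DP cells none of the 8 compared passed 2-fold in either direction, where 15.5% of all genes did and Per1 passed. Against the DP label alone Per1 did not pass. In DP against DN cells 5 of 8 were higher, Per3, Cry2, Tef, Nr1d2 and Bmal1, and none lower, against 15.9% of all genes higher and 6.55% lower, with a median log2 difference of 1.23 against 0.18 over all genes. These are folds of CPM, and median depth was 23190 UMIs in DN and 3438 in pooled DP cells. Folds per cell are not given for the clock genes. Among the handling genes Junb, Egr1 and Nr4a1, which are also induced by antigen receptor signalling, were higher and Socs3 lower in signalled DP than in DP cells. The part of these signals in the Per1 level was not tested.

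Cells of like type were found in both libraries and differed there in 2 of the 6 genes. Thymocytes of the stromal library had 206 CPM of Hsd11b1 against 1.31 CPM in T-lineage labels of the thymocyte library, a 158-fold difference (124 to 204), and 132 against 30.6 CPM of Klf9, 4.30-fold (3.73 to 4.94). Of all genes 15.9% were 2-fold higher and 8.09% lower in this comparison, 24% in either direction. The thymocytes of the stromal library also carried 13557 CPM of the 6 fibroblast markers, 35.8% of the fibroblast level, and their Hsd11b1 was at 35.6% of it. In the 20 T-lineage labels of the thymocyte library these markers were at 0 to 3.16 CPM. Of 14 handling genes compared 12 were 2-fold higher in the stromal library, and the summed level of all 15 was 6245 CPM in its thymocytes against 1061 to 3568 CPM in the 20 labels. Of 22 further target genes compared, 14 were 2-fold higher in thymocytes of the stromal library and 1 lower. Their median log2 difference was 2.26 against 0.16 over all genes. The part of fibroblast RNA and of handling in these differences was not tested. Averaged over cells, so that large cells weigh no more than small ones, Hsd11b1 was 50.9-fold and Klf9 2.53-fold higher. B and myeloid cells had 55.1 against 11.7 CPM of Hsd11b1, 4.70-fold (3.21 to 7.15), and Per1 at 13.7 against 31.0 CPM, 0.443-fold (0.329 to 0.600), where 16.3% of genes were 2-fold higher and 13.2% lower, 29.5% in either direction. As a mean over cells Per1 was 0.807-fold, inside the limit. Of 10 thymocyte genes, 9 were also 2-fold lower in these cells of the stromal library, with a median log2 difference of -2.11 against 0.04 over all genes. The part of thymocyte RNA in the Per1 difference was not tested. Enzymes, sorting and mix of stages differed between the libraries and cannot be told apart from the cells.

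By a fixed rule, none of the 6 genes led in a single label, where leading asked for 20 UMIs or more in the highest label and a level 3 times that of the second label. This held in both libraries, where 5.59% of 16162 stromal genes and 6.28% of 12215 genes of the thymocyte library did lead. The nearest was Per1 in thymocytes of the stromal library, which passed at 3.31-fold as a mean over cells.

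The genes whose levels over labels were most like those of each gene were found by Pearson's r of log2(CPM + 1), among 11827 genes in 18 stromal labels and 8408 genes in 17 labels of the thymocyte library. In the stroma the closest to Nr3c1 was Nudt12 (r = 0.93), followed by Nckap5l and Sp1. For Hsd11b1 they were Scarf2 (r = 0.97), Tnfsf13b and C1s, and for Tsc22d3 Cd48 (r = 0.92), F8 and Evi5. For Fkbp5 they were Apobec3 (r = 0.90), Prpsap2 and Rnf150, for Per1 Crem (r = 0.96), Ccnl2 and Ing3, and for Klf9 Gpx4 (r = 0.95), Rimoc1 and Ypel3. No member was among the closest 3 of another member.

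In the thymocyte library the closest to Nr3c1 were Rai1 (r = 0.90), Ttc7b and Lig4, and to Tsc22d3 Commd7 (r = 0.88), Add3 and Rasa3. For Fkbp5 they were Usp7 (r = 0.94), Dcakd and Blmh, for Per1 Arl15 (r = 0.96), Trip12 and Lrch3, and for Klf9 Shld2 (r = 0.81), Giot1 and Tnfrsf18. Hsd11b1 was not ranked there, as it had fewer than 500 UMIs. With so many genes over so few labels a high r is easily reached, and these names describe these libraries only.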

How the data were processed

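UMI counts per gene and barcode were deposited by the authors for a stromal and a thymocyte 10x library. Per the file headers, Cell Ranger 8.0.0 wrote them. The submitters' processing notes also name Seurat 5.3.0 and build mRatBN7.2. The annotation and the setting for intronic reads are not given in the sources used here. Cells were those the authors annotated, with the projected label where given and otherwise the cluster.

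Counts were summed per label as CPM over 1000000 UMIs, with exact Poisson, Clopper-Pearson and conditional ratio intervals at 95%. Classes and stages were called apart at 2-fold, among genes with at least 100 UMIs over both. No test was possible with 1 library per group. Thinning to 1000 UMIs (seed 7) left out 83 stromal and 51 thymocyte-library cells. The fold code was tested on simulated data. Python 3.11.15, NumPy 2.4.6, SciPy 1.17.1 and pandas 2.3.3 were used. The 6 genes, which are the genes named by rule, and all lists were chosen with earlier results of these data known. The TATAAA motif was added after the windows were read.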

Additional observations from a re-analysis of the deposited data

Results flagged for a closer look

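Barcodes without annotation carried all 6 genes in the stromal library. There were 2934 of them, with 8663291 UMIs in all, and no comparison above uses them. They were singled out as signal in data outside the main measurement. Nr3c1 was 233 CPM (223 to 244) in them, Hsd11b1 119 CPM (112 to 126) and Tsc22d3 45.6 CPM (41.2 to 50.3). Fkbp5 was 103 CPM (96.2 to 109.8), Per1 12.4 CPM (10.1 to 14.9) and Klf9 79.3 CPM (73.5 to 85.5). The Hsd11b1 level lay between those of the pooled epithelial and fibroblast labels. The thymocyte library had 28 barcodes without annotation, with 27563 UMIs and no UMI of any of the 6 genes.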

How the results depend on the processing

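Of 127 recomputed counts of genes past a limit, 109 stayed within 1.5 times of the reported count and 18 did not. As a mean of cell CPM the count of genes leading in 1 stromal label was 1, that of fibroblast against endothelial cells 3, against mural cells 2, and of DP against DN cells 2. With cells thinned to 1000 UMIs, fibroblast against endothelial cells gave 2, against mural cells 2, thymocytes of both libraries 1 and B and myeloid cells 0; fewer genes then reached the minimum. With the initial cluster alone, 1 gene led in each library, Per1 in the stroma and Hsd11b1 in the other. Without a minimum of UMIs DP against DN cells gave 2. Chosen after seeing the data, UMIs per cell gave 1 for fibroblast against epithelial cells, 2 against endothelial cells, 5 for DP against DN cells and 0 for signalled DP against DP cells. On that scale Per1 in DP against DN cells was reversed at 0.494-fold and Fkbp5 in mature SP against signalled DP cells at 1.21-fold, since the depth of the stages differs. The DP label without DP-P, also chosen after seeing the data, gave 4 for DP against DN cells and 0 for signalled DP against DP cells. Keeping cells with fewer handling genes, also chosen after seeing the data, gave 0 against mural cells; the cause was not tested.

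Of 578 recomputed folds of single genes, 408 moved by less than their counting interval, 168 moved further and 2 reversed. No paired analysis was possible because no group holds more than 1 library. The UMIs of Hsd11b1, Per1 and Klf9 limit the precision in labels of few cells, and no interval covers variation between animals, which these data cannot show.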

Other observations

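Labels of fewer than 20 cells held a few further UMIs of these genes. The 9 cells of mimetic(neuroendo) had 38 UMIs of Nr3c1, 21 of Klf9 and 7 of Per1 and none of Hsd11b1. The 1 cell of mimetic(ionocyte) had 8 UMIs of Hsd11b1. The 18 NKT cells of the thymocyte library had 58 UMIs of Nr3c1, 18 of Tsc22d3 and 11 of Fkbp5. Cyp11b2, which makes aldosterone, had 16 UMIs in 6 stromal cells and 6 UMIs in 1 cell of the thymocyte library.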
